A study of Mus musculus with 12 samples.

Results

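The comparison followed PSA-NCAM enriched neural cells made from mouse embryonic stem cells (mESC) from step 4 of a differentiation protocol to step 5, and asked which genes were higher or lower at the later step. It used 6 of the 12 arrays in the series, 3 per step, picked by their labels alone. All cells descended from C57BL/6 mESC that express eGFP under an actin promoter, passed through embryoid bodies and a serum-free selection of neural progenitors, and were then plated on polyornithine and laminin. Step 4 cells were neural precursors grown for 5 days with bFGF (FGF2) at 10 ng/ml and the N2 supplement. Step 5 cells had a further 7 days in which bFGF was withdrawn, N2 was replaced by B27 and ascorbic acid was added at 200 µM. Both groups were freed of dead cells and held on a magnetic column through an antibody against PSA-NCAM. Both therefore shared the line, the method of the sort and the surface they grew on. The other 6 arrays held unsorted cells of the same steps; they entered the estimate of the spread and 1 test of the difference between enriched and unsorted cells.

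The labels limit the comparison as a model. An enriched fraction is a mixture of cells, the labels describe both direct harvest and reseeding of sorted cells, and they do not say whether step 5 cells were sorted before or after their last 7 days. The days in culture, the loss of bFGF, the change of supplement and the ascorbic acid came together in every step 5 sample and cannot be told apart. If the stage of the sort differed between the groups, it cannot be told apart from these either. The series' design calls the 3 replicates of a group biological, without saying whether they were separate differentiations, so the p-values measure the spread between these samples.

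PSA-NCAM is the neural cell adhesion molecule carrying long polysialic acid chains, and it is found on migrating neuroblasts and on early glial precursors as well as on young neurons. FGF2 keeps neural precursors dividing through the MAPK cascade, whose targets include its own inhibitors. When FGF2 is taken away, cultured neural precursors are known to leave the cell cycle and to form neurons, astrocytes and oligodendrocytes, the last of which wrap axons in myelin.

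Each array set 100 ng of sample RNA, labelled with Cy5, against RNA from mESC labelled with Cy3. A value is log2 of Cy5 over Cy3, so 0 is the level of mESC, and a difference is the mean of step 5 minus the mean of step 4 on that scale, where 1 is 2-fold. A gene was called at a Benjamini-Hochberg adjusted p of at most 0.05 in limma. On the enriched arrays 26834 to 28949 of 39429 probes were well above background in Cy5, and none was saturated. Across genes, arrays of the same step correlated at 0.895 to 0.962 at step 4 and at 0.938 to 0.962 at step 5, and arrays of different steps at 0.843 to 0.905. Step 4 enriched replicate 1 stood apart: its median over 30 genes of young neurons was 1.37, against 2.98 and 3.4 in replicates 2 and 3, and its median over 24 FGF and MAPK feedback genes was 1.71 against 0.46 and 0.44. Both replicates numbered 2 lay on a slide scanned on another day with another software version, and their medians over 31 pluripotency genes were -3.53 and -3.03, above the -4.82 to -4.2 of the other 4 arrays. Where a single array ended a call named below, the number of such arrays or the value without the array that weakened it most stands beside it.

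Of 21643 genes tested, 900 were higher at step 5 (4.16%) and 563 were lower (2.6%), which makes 1463 called genes, or 6.76%. The rises were larger than the falls: 510 of the higher genes and 143 of the lower genes differed by 2-fold or more. For 1459 of the called genes the 3 arrays of each step did not overlap, and the median difference over all genes was 0. Such separation was common: among all 21643 genes, called or not, 3173 were higher without overlap and 3166 lower. With the replicate number as a block, limma called 1497 higher and 1005 lower genes, 1446 of which were also called without it. With the 6 enriched arrays alone it called 587 and 363. Without step 4 enriched replicate 2 it called 307 and 147, against 653 and 425 without step 4 enriched replicate 1. On slides 1 and 3 only, with fewer arrays, it called 210 and 115. Among 49 gene lists, those with the most members higher were myelin, astrocytes, ciliated cells, oligodendrocyte precursors and neurotransmitter receptors, and those with the most lower were mitosis, DNA replication and sterol and fatty acid synthesis.

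**Figure D1:**
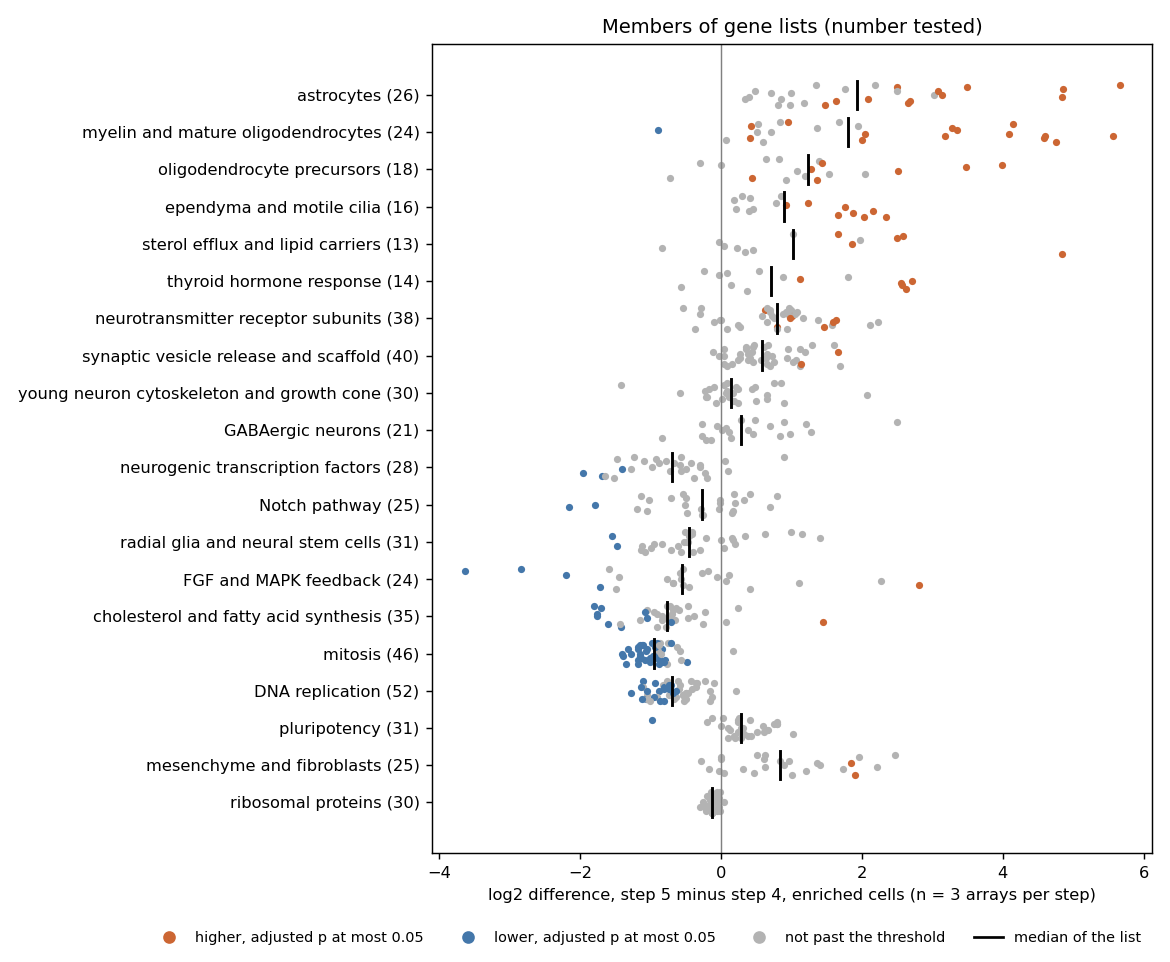
Each point is a tested member of a gene list, placed by its log2 difference, step 5 minus step 4, in enriched cells; orange points were called higher, blue points lower and grey points neither, and a black bar marks the median of the list. The glial and cilia lists have medians to the right of 0, and the mitosis list has its median at -0.95 with 36 of 46 members lower.

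Most genes of the myelin sheath and its lipids rose. Of 24 tested members of the myelin and mature oligodendrocyte list, 14 were higher and 1 was lower, with a median difference of 1.81. Mag, an adhesion protein of the myelin layer next to the axon, was at -0.41, -0.36 and -0.16 in the 3 step 4 replicates and at 4.09, 4.42 and 4.36 at step 5. Its difference was 4.6 ± 0.51 (SE, n = 3 per step; adjusted p = 0.00173). The step 4 arrays were thus near the level of mESC and the step 5 arrays far above it, with no overlap. Bcas1, which marks oligodendrocytes that have begun to make myelin, went from -1.73, -1.99 and -1.62 to 3.18, 3.71 and 4.44, a difference of 5.56 (47.1-fold, adjusted p = 0.00224). Cnp, a phosphodiesterase of non-compact myelin, was at -0.01, 0.53 and 0.7 and then at 4.06, 4.39 and 5.05.

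The enzymes of the myelin glycolipids moved with the proteins. Ugt8a, which makes galactosylceramide, was at -0.49, -0.61 and -0.53 at step 4 and at 2.52, 2.53 and 2.87 at step 5, a difference of 3.18 ± 0.25 (SE, n = 3 per step; adjusted p = 0.000362). Fa2h, which hydroxylates the fatty acids of these lipids, was not well above background on any of the 3 step 4 arrays and was well above it on the step 5 arrays, at 3.12, 3.35 and 4.43. Its ratio to Cy3 differed by 4.15, or 17.7-fold (adjusted p = 0.000577). For such a gene a bound was also taken from the normalized Cy5 signal alone, with the dim arrays held at no less than the weakest signal above background, and it was at least 23.3-fold for Fa2h. The Cy5 bound is on another scale than the ratio and does not bound it. No dyes were swapped, and a dye effect common to all arrays cancels in both measures. In both genes the step 5 arrays lay far above the level of mESC.

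The remaining myelin genes showed where the rise stopped. Mal, Trf and Mobp were higher by 3.28, 3.35 and 2.04, and Enpp6, an enzyme of newly formed oligodendrocytes that was not well above background at step 4, by 2 (at least 4.8-fold on Cy5 alone). Cldn11, the tight junction protein of myelin, was higher by 4.75 (adjusted p = 0.0127), and without step 5 enriched replicate 3 its adjusted p was 0.0512. Mog, a late protein of the outer sheath surface, rose from -0.16, -0.22 and -0.14 to 0.24, 0.43 and 0.1, a difference of only 0.43 (adjusted p = 0.0379), and leaving out any of 8 arrays ended its call (0.4 and adjusted p = 0.132 without step 4 enriched replicate 2). Opalin, Ermn and Myrf, a transcription factor of myelin genes, had differences of 0.53, 0.71 and 0.08 and did not pass the test. When any of the 12 arrays was left out, 11 to 16 myelin genes were higher.

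Genes of oligodendrocyte precursors, the cells that come before myelin formation, gave a smaller rise. Of 18 tested members, 7 were higher and none lower, with a median of 1.24. Sox10, the transcription factor of the whole lineage, was at 0.29, 0.42 and 0.56 at step 4 and at 2.58, 2.91 and 3.31 at step 5 (difference 2.51, SE 0.31, adjusted p = 0.00273). Gpr17, a receptor of precursors about to differentiate, rose from 0.26, 0.31 and 0.62 to 4.1, 4.34 and 4.73, a difference of 3.99 (adjusted p = 0.0105), which was 1.83 in the deposited value table and not called there (adjusted p = 0.315). Omg, a glycoprotein of oligodendrocytes and neurons, rose from -0.07, 0.35 and 0.76 to 3.58, 3.34 and 4.54. The step 5 arrays of these 3 genes all lay above their step 4 arrays.

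The early members did not pass the test without a block. Olig2, a transcription factor that starts the lineage, was at -0.18, -0.47 and 0.2 and then at 1.1, 0.29 and 1.76, with an adjusted p of 0.0587 and of 0.0116 with the replicate block. Olig1 had a difference of 1.39 (adjusted p = 0.163, and 0.0159 with the block). Pdgfra, the growth factor receptor of precursors, was at 0.65, 2.8 and 1.81 and then at 3.23, 3.95 and 4.2, a difference of 2.04 with an adjusted p of 0.0676, and of 0.0294 with the block. The Olig1 and Olig2 values of step 5 replicate 2, at 0.02 and 0.29, were the lowest of that step. With the block 12 precursor genes were higher, with the 6 enriched arrays alone 3, and 3 without step 4 enriched replicate 2. Nkx2-2 (1.28, adjusted p = 0.0221) lost its call without 3 different arrays, with 1.33 and 0.0697 without step 4 enriched replicate 2.

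**Figure D2:**
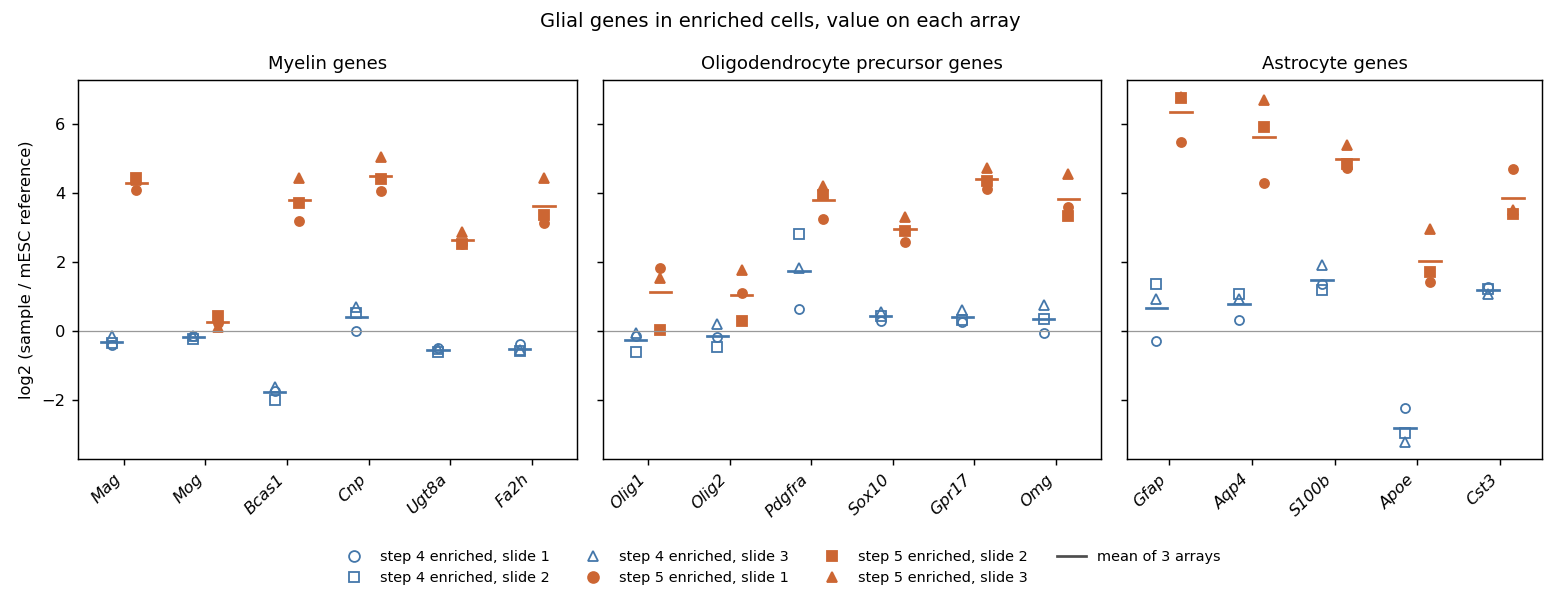
Log2 Cy5/Cy3 of glial genes on each enriched array, with step 4 as open and step 5 as filled points, the symbol giving the slide, and a bar at the mean of the 3 arrays; 0 is the level in mESC. Mag and Bcas1 were between -1.99 and -0.16 at step 4 and between 3.18 and 4.44 at step 5.

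Astrocyte genes rose as a group, with larger spread between arrays. Of 26 tested members, 12 were higher and none lower, and the median difference was 1.93. Gfap, the intermediate filament of astrocytes, was at -0.29, 1.37 and 0.93 at step 4 and at 5.47, 6.74 and 6.78 at step 5, a difference of 5.66 ± 1.05 (SE, n = 3 per step; adjusted p = 0.0129), or 50.6-fold. Without step 5 enriched replicate 3 the difference was 5.44 with an adjusted p of 0.0514. Aqp4, the water channel of astrocyte endfeet, went from 0.33, 1.07 and 0.92 to 4.29, 5.9 and 6.7 (difference 4.86, adjusted p = 0.0111). In both genes the lowest step 5 array was several units above the highest step 4 array.

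Other astrocyte genes included secreted lipid and protease proteins, a gap junction and transporters. Apoe, the lipid carrier released by astrocytes, was below mESC at step 4, at -2.24, -2.97 and -3.21, and above it at step 5, at 1.43, 1.72 and 2.94, a difference of 4.84 ± 0.39 (SE, n = 3 per step; adjusted p = 0.000362). Cst3, a secreted protease inhibitor, was at 1.27, 1.21 and 1.07 and then at 4.69, 3.38 and 3.51. Gjb6, the connexin 30 gene of mature astrocytes, was at -0.05, 0.44 and 0.19 and then at 1.93, 3.99 and 3.91. These 3 genes kept their call without any 1 of the 12 arrays. S100b was higher by 3.5 (adjusted p = 0.0126, and 0.0598 without step 4 enriched replicate 2), but in the deposited value table its difference was 0.19 (adjusted p = 0.915), and the glutamate transporter Slc1a2 by 1.64 (adjusted p = 0.0318), a call that any of 5 arrays could end (1.61 and 0.105 without step 4 enriched replicate 2; 1.08 and 0.514 in the deposited value table). Ntsr2 was not well above background on any step 4 array; its ratio differed by 3.14 (at least 16.8-fold on Cy5 alone; adjusted p = 0.0235, and 0.081 without step 4 enriched replicate 2).

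Several markers shared by astrocytes and radial glia did not pass. Slc1a3, Sox9 and Aldh1l1 had differences of 0.99, 0.35 and 0.49, and the proteoglycan gene Bcan had 3.03 with an adjusted p of 0.207. The median of the 26 genes was 1.3, 1.77 and 1.91 on the step 4 arrays and 4.02, 3.93 and 4.06 on the step 5 arrays. The count of higher members was 10 with the 6 enriched arrays alone, 5 without step 4 enriched replicate 2, 7 without step 4 enriched replicate 1 or step 5 enriched replicate 2, and 4 without step 5 enriched replicate 3. These are bulk samples, in which more cells of a type and more RNA of its genes per cell cannot be told apart.

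Genes of motile cilia, the beating cilia of ependymal cells, rose to a lesser degree. Of 16 tested members 8 were higher and none lower, with a median of 0.89, and the count fell to 3 without step 5 enriched replicate 3. Foxj1, the transcription factor that drives motile cilia, was at 1.16, 1.2 and 0.7 and then at 2.35, 3.1 and 2.9 (difference 1.76, adjusted p = 0.0149, and 1.7 with 0.0565 without step 5 enriched replicate 3). Rsph1, a radial spoke protein, was at -2.08, -2.1 and -2.02 and then at -0.15, -0.54 and 0.09. Cfap126, a protein of the ciliary base, was at 0.03, -0.02 and -0.41 and then at 2.01, 2.04 and 2.61 (difference 2.35, adjusted p = 0.00177). Dnah5, an outer arm dynein, had 0.46 and did not pass, so the calls did not extend to every part of the cilium.

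Genes of mitosis fell together. Of 46 tested members, which include cyclins, kinesins, kinetochore and spindle checkpoint proteins, 36 were lower and none higher, with a median of -0.95. Cenpe, a kinesin of the kinetochore, was at -0.19, -0.41 and -0.59 and then at -1.93, -1.64 and -1.79 (difference -1.39, SE 0.18, adjusted p = 0.00315). Birc5, a subunit of the chromosomal passenger complex, was at -0.27, -0.21 and -0.68 and then at -1.81, -1.63 and -1.78. Cdk1, the kinase that starts mitosis, was at -0.61, -0.85 and -0.89 and then at -2.13, -1.64 and -2.11 (difference -1.18, adjusted p = 0.00692). Precursors at step 4 were thus below mESC already, and the step 5 arrays lay below them without overlap.

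Other members stood close to these. Mki67, a protein of the surface of mitotic chromosomes, was at -0.36, -0.18 and -0.36 and then at -1.66, -1.53 and -1.24 (difference -1.18, adjusted p = 0.0177; -1.12 and 0.0762 without step 4 enriched replicate 2). Ccnb1, the cyclin partner of Cdk1, had a difference of -1.12 (adjusted p = 0.0455) and Plk1, a mitotic kinase, one of -0.95 (adjusted p = 0.0482, and 0.0512 with the replicate block); leaving out any of 10 arrays ended either call, with -1.04 and 0.145 for Ccnb1 and -0.88 and 0.149 for Plk1 without step 5 enriched replicate 3. Kif11, the motor that separates the spindle poles, fell by 1.01, Ube2c, an enzyme that marks mitotic proteins for destruction, by 1.13, and Nuf2 by 1.32, and these kept their call without any 1 array. Of the 10 members not called, Mybl2 had 0.17 and the others were between -0.89 and -0.56. The count of lower members ranged from 16 without step 4 enriched replicate 2, and 19 without step 5 enriched replicate 3, to 41.

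Promoters of many of these genes are known to carry a CHR element, read by the DREAM and MMB complexes of the cell cycle, a few turns of DNA from CCAAT boxes bound by NF-Y. The letters of both motifs were searched on both strands of RefSeq windows from 250 bases before to 50 bases after the start site (build GRCm38.p6), with TTTGAA and TTCGAA for CHR and CCAAT for the box. Of the 36 lower mitosis genes, 32 had a window; 24 of these held a CHR match (75%), 25 a CCAAT match (78.1%) and 21 both (65.6%). Among the 12801 tested genes with a window the shares were 13.9%, 38.7% and 5.92%, and among all 27025 promoters 19.4%, 37.9% and 7.7%. The share with both was 66.7% among all 39 tested mitosis genes with a window, called or not. These are matches of letters, with no test and no reading of binding, and overlapping matches were counted as they stood. The stretches that follow, chosen after the values were seen, show the matches upstream of 5 lower genes, 5′ to 3′ on the strand of the gene, with the CHR and CCAAT matches of either strand in capitals and all bases lying before the start site. They are chr7:135716460-135716579 (minus strand) for Mki67, chr10:69352913-69353004 (minus) for Cdk1, chr2:164769829-164769917 (plus) for Ube2c, chr11:99024251-99024390 (minus) for Top2a and chr19:37376325-37376380 (plus) for Kif11.
Mki67: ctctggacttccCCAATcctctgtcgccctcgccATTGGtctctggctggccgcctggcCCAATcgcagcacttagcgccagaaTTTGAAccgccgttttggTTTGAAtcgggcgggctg
Cdk1: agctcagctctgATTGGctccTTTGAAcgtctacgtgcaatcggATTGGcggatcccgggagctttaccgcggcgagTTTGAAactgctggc
Ube2c: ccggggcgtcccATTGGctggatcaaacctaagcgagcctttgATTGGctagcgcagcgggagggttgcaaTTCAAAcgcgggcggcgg
Top2a: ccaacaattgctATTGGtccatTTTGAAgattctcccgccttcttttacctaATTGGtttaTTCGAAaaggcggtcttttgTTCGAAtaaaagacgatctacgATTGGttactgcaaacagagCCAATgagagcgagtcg
Kif11: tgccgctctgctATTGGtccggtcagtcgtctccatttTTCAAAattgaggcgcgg

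Genes of DNA replication fell in part. Of 52 tested members 18 were lower and none higher, with a median of -0.69, and the count fell to 3 without step 4 enriched replicate 2. Tk1, the thymidine salvage kinase of S phase, was at -0.14, -0.27 and -0.53 and then at -1.53, -1.56 and -1.65 (difference -1.27, adjusted p = 0.0023). Rrm1, the large subunit of ribonucleotide reductase, was at -0.12, -0.28 and -0.53 and then at -1.46, -1.45 and -1.42. The helicase subunit Mcm2 and the sliding clamp Pcna had -0.73 and -0.64 and did not pass. Of the 14 lower replication genes with a promoter window, 1 held a CHR match (7.14%) and 8 a CCAAT match (57.1%). Among 19 D cyclins, retinoblastoma family members and inhibitors of cyclin-dependent kinases, 3 were lower: the pocket protein Rbl1 (-1.27, adjusted p = 0.00165), and Cdk4 (-0.81, adjusted p = 0.0398) and Ccnd2 (-0.78, adjusted p = 0.0426), whose calls any of 8 and of 9 arrays could end (-0.76 and 0.137 for Cdk4 without step 4 enriched replicate 2, -0.7 and 0.144 for Ccnd2 without step 5 enriched replicate 3). With the replicate block 7 were lower and 1 higher. The kinase inhibitors Cdkn1a and Cdkn1b had 0.39 and 0.19 and did not pass.

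Genes around FGF signalling were split. Fgfbp3, a secreted protein that binds FGFs, was at 3.9, 5.67 and 6.38 at step 4 and at 1.66, 1.8 and 1.6 at step 5, a difference of -3.63 ± 0.6 (SE, n = 3 per step; adjusted p = 0.00823), or 12.3-fold lower. Fgf15, a ligand made by embryonic neural precursors, was at 3.32, 2.89 and 4.01 and then at 0.41, 0.79 and 0.65 (difference -2.79, adjusted p = 0.00896), or 6.91-fold lower. For both genes the 3 step 5 arrays were closer together than the step 4 arrays and lay below all of them. Fgfr1, the main FGF receptor of neural precursors, had 0.1 and Fgfr3 had 0.71, and neither passed. Of 23 ligands, receptors and binding proteins, 2 were higher and 2 lower (4 and 3 with the replicate block, and 0 higher without step 5 enriched replicate 2 or 3).

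Of 24 genes listed for FGF and MAPK feedback, 4 were lower and 1 was higher, with a median of -0.55. The lower genes were Il17rd, Etv4, Hmga2 and Fgfbp3, the last of which is also counted among the binding proteins above. Hmga2 and Fgfbp3 are not feedback inhibitors, so the list is wider than its name. Il17rd, a membrane inhibitor of FGF signalling, was at 2.73, 0.92 and 0.75 and then at -0.5, -0.87 and -0.79 (difference -2.19, adjusted p = 0.0167, and -2.15 with 0.0586 without step 5 enriched replicate 3). Etv4, a transcription factor induced by FGF, was at 1.58, -0.2 and 0.37 and then at -0.45, -1.37 and -1.57 (adjusted p = 0.0473; -1.49 and 0.158 without step 5 enriched replicate 3, and 9 arrays could end the call). Hmga2, a chromatin protein of young precursors, was at 4.09, 2.46 and 1.41 and then at 0.12, 0.2 and -0.84 (adjusted p = 0.0277; -2.49 and 0.103 without step 5 enriched replicate 3). The feedback inhibitors Spry1, Spry2 and Spry4 had -1.44, -0.54 and -0.68, and with the replicate block Spry1 and Spry2 passed (0.0343 and 0.0144) and Spry4 did not (0.191). Spry4 shows how the step 4 arrays differed: it was at 1.62 in replicate 1 and at -0.69 and -0.71 in the others, and at 0.57, -0.82 and -1.57 at step 5. Ccnd1, the cyclin most tied to MAPK signalling, was at 3.77, 2.02 and 1.86 and then at 1.51, 0.67 and 0.7 (adjusted p = 0.0962, and 0.0119 with the block). Without step 4 enriched replicate 1 the median of the 24 genes was -0.23. The count of lower members was 9 with the block and 1 with the 6 enriched arrays alone, without step 5 enriched replicate 2, or without step 5 enriched replicate 3.

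Fos was the called higher member of that list. It was at 0.25, 0.13 and -0.47 at step 4 and at 2.92, 2.93 and 2.48 at step 5 (difference 2.81, SE 0.38, adjusted p = 0.00361). Fos is an immediate early gene, induced within minutes by calcium entry and growth factors alike. Arc, an immediate early gene of active synapses, was at -0.76, -2.03 and -1.63 and then at 0.17, -0.07 and 0.43 (difference 1.65, adjusted p = 0.00869). Nr4a1 was higher by 1.82 (adjusted p = 0.0245; 1.71 and 0.0968 without step 4 enriched replicate 2), and Egr1 had 2.28 with an adjusted p of 0.105, and 0.0457 with the block. Fos, Arc and Nr4a1 were the 3 immediate early genes called higher, of 21 tested, and none was lower; with the replicate block 5 were higher and 1 lower.

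**Figure D3:**
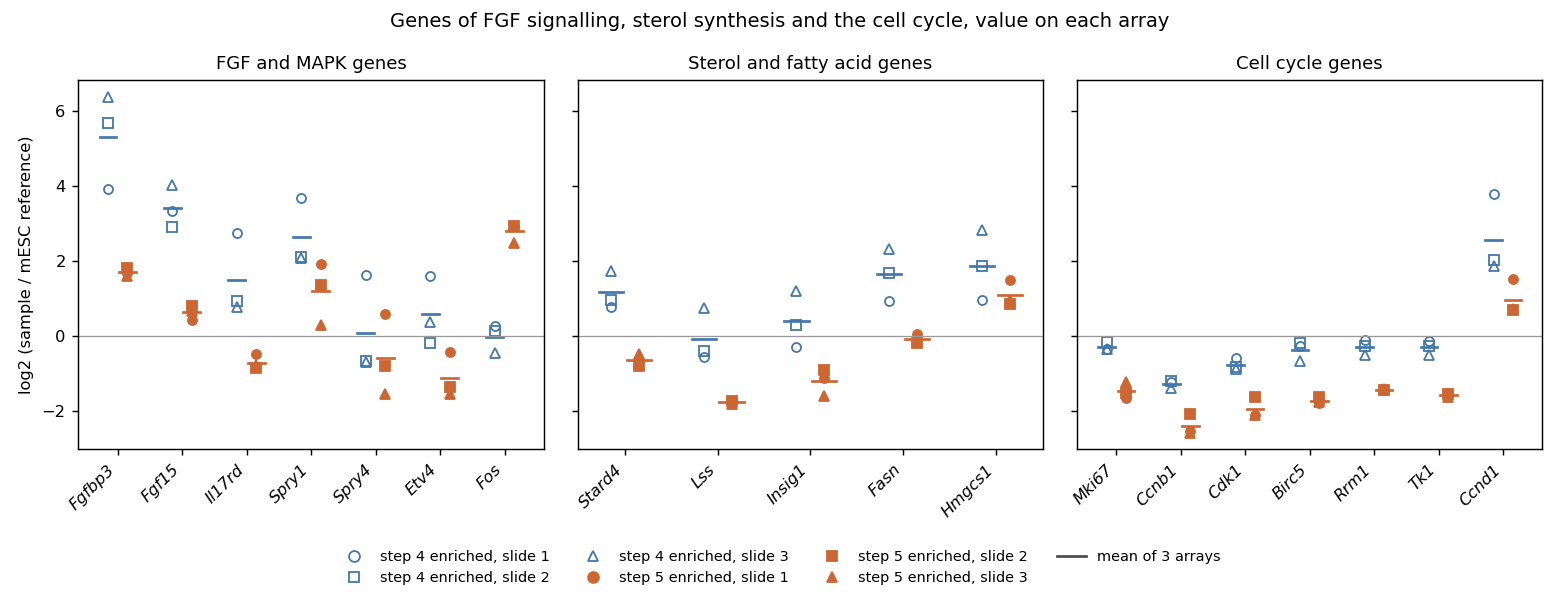
Log2 Cy5/Cy3 of genes of mitosis, FGF signalling and sterol synthesis on each enriched array, with step 4 as open and step 5 as filled points, the symbol giving the slide, and a bar at the mean of the 3 arrays; 0 is the level in mESC. Stard4 was between 0.76 and 1.72 at step 4 and between -0.81 and -0.49 at step 5, and the mitosis genes shifted by about 1 unit.

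Some genes of cholesterol and fatty acid synthesis fell, and several of lipid carriage rose. Of 35 tested members of the synthesis list, 9 were lower and 1 was higher, with a median of -0.76. Stard4, a carrier of cholesterol inside cells, was at 0.76, 0.96 and 1.72 at step 4 and at -0.67, -0.81 and -0.49 at step 5 (difference -1.8, SE 0.25, adjusted p = 0.00396). Lss, which closes the sterol ring, was at -0.56, -0.42 and 0.74 and then at -1.75, -1.74 and -1.82 (difference -1.7, SE 0.28, adjusted p = 0.00869). Both are known targets of the transcription factor SREBP2, and both kept their call without any 1 of the 12 arrays. Insig1, which holds SREBP2 back when sterols are plentiful, is itself among the targets of SREBP2. It was at -0.31, 0.28 and 1.19 and then at -1.12, -0.91 and -1.6 (difference -1.6, adjusted p = 0.0227). Any of 3 arrays could end its call (-1.4 and 0.086 without step 5 enriched replicate 3).

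Other enzymes of lipid synthesis varied more. Hmgcs1, an early enzyme of the sterol pathway, was at 0.94, 1.86 and 2.81 and then at 1.48, 0.84 and 0.96, which overlap. Fasn, the fatty acid synthase, was at 0.93, 1.68 and 2.32 and then at 0.03, -0.19 and -0.15 (adjusted p = 0.0219; -1.73 and 0.0815 without step 4 enriched replicate 2). Me1, which supplies NADPH for lipid synthesis, was the higher member, at 1.45 (adjusted p = 0.0125; 1.36 and 0.0612 without step 4 enriched replicate 2). On the slides taken singly, the median difference of the list was -0.13, -0.75 and -1.5 for replicates 1, 2 and 3, while the step 4 medians were 0.16, 0.49 and 1.14 and the step 5 medians 0.03, -0.25 and -0.49. The count of lower members was 4 without step 4 enriched replicate 2 or without step 5 enriched replicate 3, and at most 12.

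Of 13 tested genes of sterol efflux and lipid carriage 5 were higher and none lower, with a median of 1.03. Nr1h3, the oxysterol receptor LXR alpha, was at 0.11, 0.08 and 0.19 and then at 1.88, 1.82 and 1.66 (difference 1.66, SE 0.19, adjusted p = 0.00181). Lpl, the lipoprotein lipase, was at 1.12, 0.96 and 0.58 and then at 4.4, 3.3 and 2.69, and Lcat, which esterifies cholesterol on lipoproteins, was higher by 1.86 (adjusted p = 0.00411). Apoe, given above with the astrocyte genes, belongs here too, as does Clu, a chaperone of secreted proteins, at 2.5 (adjusted p = 0.0455), whose call any of 8 arrays could end (2.34 and 0.14 without step 5 enriched replicate 3). The exporters Abca1 and Abcg1 had 1.03 and -0.83 and did not pass. The called genes of this list were thus carriers, a lipase, an esterifying enzyme and a receptor, and no exporter.

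Genes of young neurons did not change as a group. Of 30 tested members none was called in either direction, and the median difference was 0.15. Dcx, a microtubule protein of migrating neuroblasts, was at 3.77, 6.17 and 6.38 at step 4 and at 5, 5.65 and 6.03 at step 5, a difference of 0.12 ± 0.82 (SE, n = 3 per step; adjusted p = 0.952). Tubb3, the neuronal beta-tubulin, was at 0.67, 3.21 and 3.58 and then at 2.54, 2.35 and 2.78 (difference 0.07, SE 0.94). Both genes were well above mESC at both steps, and the steps overlapped. The median difference of the list was 1.28 on slide 1, and -0.29 and -0.24 on slides 2 and 3; without step 4 enriched replicate 1 it was -0.33. Standard errors of this size, which rest on the spread within groups over all 12 arrays, leave small changes of such genes undetectable here.

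Neurotransmitter receptors are made later, as neurons mature. Of 38 tested receptor genes 7 were higher and none lower, with a median of 0.8. Gabrg3, a subunit of the GABA-A receptor, was at 0.65, 0.75 and 1.11 and then at 2.48, 2.08 and 2.33 (difference 1.46, SE 0.17, adjusted p = 0.00224). Over 26 other settings of the processing and the fit its difference ranged from 0.81 to 1.86, and 1 setting ended its call (limma adjusted p = 0.392). Gabrg1, a subunit also made by glia, was at 0.58, 0.92 and 1.5 and then at 2.84, 2.17 and 2.9. Its difference ranged from 0.91 to 2.43 over those settings, and 1 of them ended its call (limma adjusted p = 0.209). Grin1, the obligatory NMDA receptor subunit, was at -0.68, -0.54 and 0.09 and then at 0.8, 0.63 and 0.4 (difference 0.98, adjusted p = 0.0204; 0.9 and 0.0875 without step 4 enriched replicate 2). The count of higher receptors was 13 with the replicate block, 3 with the 6 enriched arrays alone, and 2 to 11 when any of the 12 arrays was left out, the lowest without step 4 enriched replicate 2. Without step 4 enriched replicate 1 the median was 0.5.

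Of 40 genes of vesicle release and synaptic scaffolds, 2 were higher and none lower, a share near that of all genes; 6 were higher with the replicate block, 6 without step 4 enriched replicate 3, and 1 without any of the other 5 enriched arrays. Vamp2, the vesicle SNARE of synapses, was at 1.86, 2.12 and 2.24 and then at 3.36, 3.26 and 3.03 (difference 1.14, SE 0.2, adjusted p = 0.0103). Cplx1, a clamp on vesicle fusion, was at -0.36, 0.52 and 1.22 and then at 2.33, 1.74 and 2.34 (adjusted p = 0.0319; 1.57 and 0.108 without step 5 enriched replicate 3). Syp, an integral vesicle protein, had 0.65 (adjusted p = 0.051, and 0.0462 with the block), Snap25 had 0.39 and Syn1 0.73. Among 37 channel genes 2 were higher, or 5.41%, near the 4.16% of all genes (4 were higher with the replicate block or without step 4 enriched replicate 3). Both are made by glia as well as neurons. Kcnj10, the potassium channel of astrocytes and oligodendrocytes, was at 0.12, 1.39 and 1.08 and then at 5.91, 4.95 and 4.17 (difference 4.14, adjusted p = 0.0119), and Kcnk1 rose by 1.92.

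Transmitter identity was not separated by this comparison. Gad1, the enzyme that makes GABA, was at -0.24, 0.78 and 2.75 at step 4 and at 4.14, 3.11 and 3.52 at step 5, a difference of 2.5 ± 0.93 (SE, n = 3 per step; adjusted p = 0.144). The step 5 arrays lay above the step 4 arrays, which spread over 3 units. None of 21 GABAergic genes was called, and 2 were higher with the replicate block, with medians of 0.77, 1.29 and 2.75 on the step 4 arrays and of 1.91, 2.02 and 2.29 at step 5. Slc17a6, a vesicular glutamate transporter, had -0.18 and Th, the first enzyme of dopamine synthesis, had 0.28, and neither passed. In the lists of 9 glutamatergic, 14 dopaminergic and midbrain and 9 motor and cholinergic genes the calls were Grin1, given above, Aldh1a1, Otx2, given below, and Ache at 0.69 (adjusted p = 0.0171, and 0.0626 without step 4 enriched replicate 2), none of which is limited to those neurons.

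**Figure D4:**
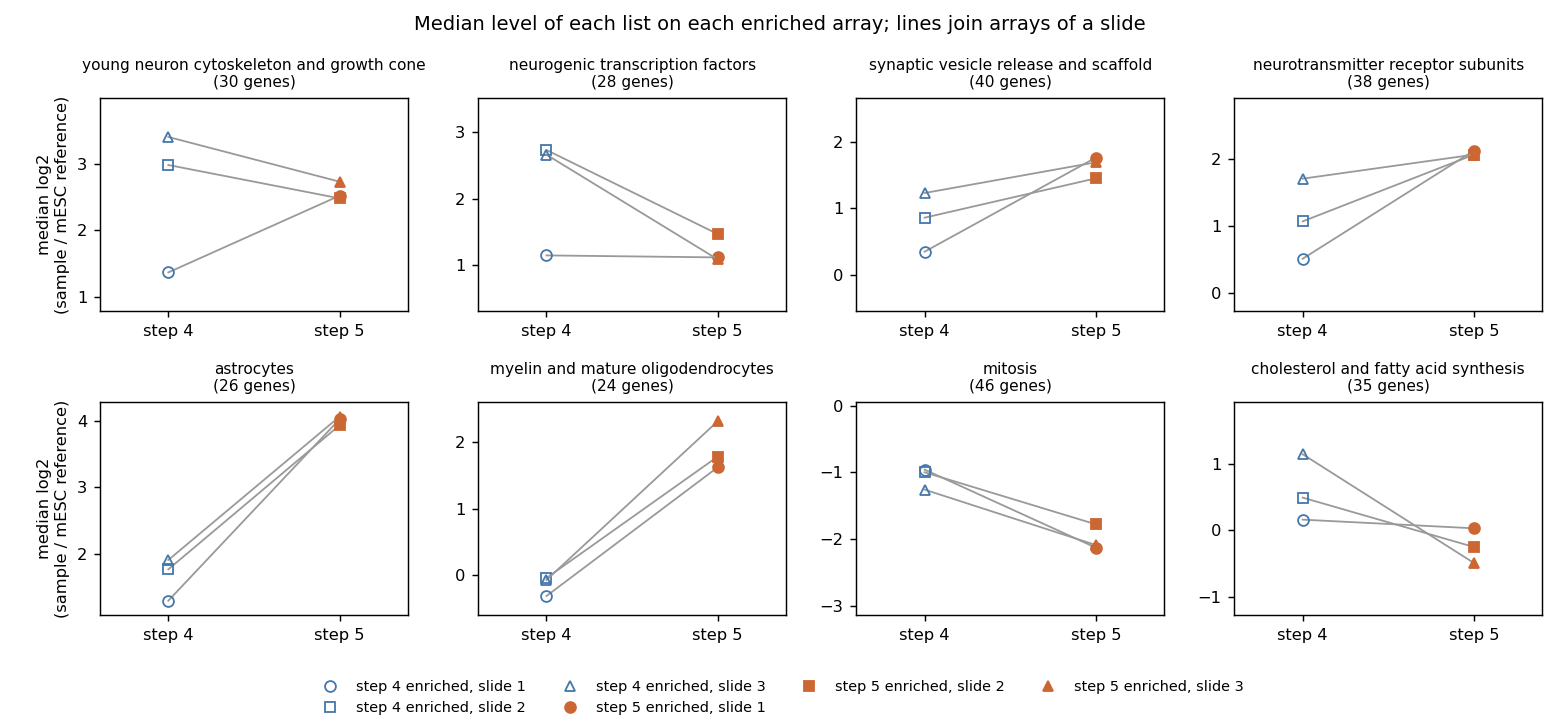
Median log2 Cy5/Cy3 of 8 gene lists on each of the 6 enriched arrays; open points are step 4, filled points step 5, the symbol gives the slide and a line joins the arrays of a slide, and 0 is the level in mESC. At step 4 the astrocyte medians ranged from 1.3 to 1.91 and at step 5 from 3.93 to 4.06, whereas the young neuron medians of 1.37 to 3.4 and 2.48 to 2.73 overlap, with step 4 replicate 1 lowest.

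Transcription factors that drive neuron formation were lower in part. Of 28 tested, 3 were lower and none higher, with a median of -0.69. Neurog2, a proneural factor, was at 0.98, 2.09 and 1.73 and then at 0.27, 0.25 and 0.08 (difference -1.4, SE 0.25, adjusted p = 0.0108). Lhx5, a factor of early born neurons, was at 3.31, 3.43 and 3.29 and then at 1.73, 1.75 and 0.69 (difference -1.96, adjusted p = 0.0145; -1.91 and 0.0627 without step 4 enriched replicate 2). Insm1, a zinc finger factor of newborn neurons, had -1.69 (adjusted p = 0.0455), and any of 8 arrays could end its call (-1.31 and 0.158 without step 4 enriched replicate 2). The count moved with more than 1 array. Without step 4 enriched replicate 1 the median was -1.09 and 8 were lower, and without step 4 enriched replicate 2 only 1 was. On slides 1 and 3 only, 0 were lower.

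The Notch pathway keeps precursors from becoming neurons, and its ligands are made by cells that have begun to do so. Of 25 tested members 2 were lower and none higher (4 lower with the replicate block or without step 4 enriched replicate 1, and 1 without any of 4 other enriched arrays). Hes6, a factor that opposes Notch in differentiating cells, was at 2.85, 2.28 and 2.43 and then at 0.45, 0.47 and 1.28 (difference -1.79, SE 0.32, adjusted p = 0.0111). Mfng, which glycosylates Notch receptors, was at 0.58, 1.83 and 1.49 and then at -1.47, -1.08 and 0.01 (adjusted p = 0.0235; -1.88 and 0.0989 without step 4 enriched replicate 2). The ligand Dll1 was at 1.64, 2.81 and 2.67 and then at 0.78, 1 and 1.78 (adjusted p = 0.0945, and 0.0451 with the block). Notch1 had 0.16, and Hes5, a direct target of Notch, was at 3.79, 5.68 and 5.71 and then at 3.04, 4.74 and 5.97, which overlap.

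Of 31 radial glia and neural stem cell genes 2 were lower, and both calls were fragile. Nes, the intermediate filament of precursors, was at 3.4, 2.81 and 3.05 and then at 2.35, 0.99 and 1.52 (difference -1.47, adjusted p = 0.0494). Gli3, a transcription factor of the hedgehog pathway, was at 2.5, 3 and 2.3 and then at 0.92, 1.3 and 0.97 (difference -1.54, adjusted p = 0.0464). Leaving out any of 10 arrays ended the call of Nes (-1.16 and 0.145 without step 5 enriched replicate 2) and any of 9 that of Gli3 (-1.34 and 0.163 without step 4 enriched replicate 2). Sox2 and Pax6, core factors of neural stem cells, had -0.21 and -0.45 and did not pass.

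Regional factors of the anterior neural tube gave single falls. Of 17 forebrain and hypothalamic genes 3 were lower and 1 higher. Otx2, the forebrain and midbrain factor, was at 3.31, 3.29 and 2.95 and then at 2.48, 1.82 and 1.47 (difference -1.26, adjusted p = 0.0187; -1.21 and 0.0784 without step 4 enriched replicate 2). Fezf1, a rostral forebrain factor, was lower by 1.23 (adjusted p = 0.011), and Six6, an eye and hypothalamus factor, had -1.59 (adjusted p = 0.0484), and any of 9 arrays could end its call (-1.62 and 0.123 without step 5 enriched replicate 3). Nkx2-1, a factor of the ventral forebrain and hypothalamus, had -0.25 and did not pass. The lower count fell to 1 forebrain gene when any of 4 enriched arrays was left out (replicates 1 and 2 of step 4, 2 and 3 of step 5). Of 18 midbrain and hindbrain genes 3 were lower, and 0 when enriched replicate 2 of step 4, or 1 or 3 of step 5, was left out. None of 12 Hox genes was called. Of 38 tested genes of Wnt, BMP and TGF-beta signalling 2 were lower and 1 higher, with a median of 0.14. These shares were 5.26% and 2.63%, against 2.6% of all genes lower and 4.16% higher. Fzd8 (-0.93, adjusted p = 0.00875) and Wnt7b (-0.85, adjusted p = 0.0116) were lower. Bmp4 was higher (1.31, adjusted p = 0.0183, and 0.0704 without step 4 enriched replicate 2). The higher count was 0 without step 4 enriched replicate 2 or 3, or without step 5 enriched replicate 3.

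Of 14 tested genes known to respond to thyroid hormone 5 were higher and none lower, with a median of 0.71. Klf9, a transcription factor induced by thyroid hormone and glucocorticoids, was at -3.28, -2.76 and -4 and then at -0.19, -0.24 and -1.47 (difference 2.71, SE 0.37, adjusted p = 0.004). Hr, the corepressor hairless, was at -1.29, -0.81 and -1.27 and then at 1.99, 1.9 and 0.39 (difference 2.55, adjusted p = 0.00764). Itga7 rose by 2.63 (adjusted p = 0.00132) and Dbp, a clock output gene, by 2.57 (adjusted p = 0.0166, and 0.0701 without step 4 enriched replicate 2). B27, which replaced N2, is known to contain the thyroid hormone T3; the supplement changed together with the step, and their parts cannot be told apart. The count fell to 3 without step 5 enriched replicate 3.

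The retinoid genes called higher were an enzyme and a receptor. Aldh1a1, which makes retinoic acid, was at 1.33, 0.53 and -0.18 and then at 4.19, 4.58 and 4.04 (difference 3.71, SE 0.44, adjusted p = 0.00224). Rarb, a retinoic acid receptor that is itself a target of retinoic acid, was at 1.15, 1.49 and 1.18 and then at 2.8, 3.18 and 4.14 (difference 2.1, adjusted p = 0.00685). They were the 2 calls among 20 tested genes, or 10%, against 4.16% of all genes. The median was 0.3, 12 of the 20 differences were above 0, and 6 genes were called higher with the replicate block. Cyp26b1 and Crabp2, also in the list, were not called. Over 26 other settings of the processing and the fit, Cyp26b1 ranged from -1.69 to -0.11 and Crabp2 from 0.43 to 1.23. Stra8, a retinoic acid target of germ cells, was at -4.01, -3.68 and -3.9 and then at -1.01, 1.48 and -0.45 (difference 3.87, adjusted p = 0.0156; 3.96 and 0.058 without step 4 enriched replicate 2). It was the single call among 18 germline genes, or 5.56%, near the 4.16% of all genes that were higher.

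Among antioxidant genes 6 of 30 were higher and 1 lower. Prdx6, a peroxidase of phospholipids, was at -0.29, -0.23 and -0.33 and then at 3.16, 2.88 and 3.43 (difference 3.44, SE 0.27, adjusted p = 0.000362), with 4 probes that ranged from 0.85 to 3.44. Mt1, a metallothionein that binds zinc, was at 0.68, 1.04 and 0.69 and then at 3.55, 2.97 and 3.12 (difference 2.41, SE 0.21, adjusted p = 0.000553). The glutathione transferase Gstm1 rose by 2.11 and the lipid peroxidase Gpx4 by 1.03, whereas Hmox1 and Nqo1, usual targets of the stress factor NRF2, had 0.94 and 0.96 and did not pass (Nqo1 0.0233 with the block). Of 32 hypoxia and glycolysis genes 5 were higher, with Ndrg1 at 2.12 (adjusted p = 0.00869) and Vegfa at 0.52, which did not pass, and the count was 1 without step 4 enriched replicate 2 or without step 5 enriched replicate 3.

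Matrix genes and the enzymes that need ascorbate, which hydroxylate collagen, gave few calls. Of 34 tested 3 were higher (7 without step 4 enriched replicate 1), among them Col23a1 (1.81, adjusted p = 0.00177) and Col9a3 (1.26, adjusted p = 0.0116). Col1a1 was at 7.04, 5.32 and 4.66 and then at 7.23, 7.58 and 7.44, and did not pass (adjusted p = 0.12). In the extracellular matrix of brain, Tnr, a glycoprotein made by oligodendrocytes, was higher by 1.16 (adjusted p = 0.00833). Over 26 other settings of the processing and the fit its difference ranged from 0.96 to 1.52. Of these settings 2 ended its call (highest limma adjusted p = 0.372). Has2, which makes hyaluronan, was at 1.85, 2.9 and 3.06 and then at 0.41, 0.72 and 0.82 (difference -1.95, SE 0.33, adjusted p = 0.00921). Has2 was the lower of 20 such genes, and Tnr and Spock2 the 2 higher, Spock2 with an adjusted p of 0.0162, and 0.0616 without step 4 enriched replicate 2.

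Markers of the sort and of other cell types were read in the same arrays. Ncam1, which carries the sort epitope, was at 3.69, 3.98 and 4.02 and then at 4.03, 4.15 and 4.19 (difference 0.22), and St8sia2 and St8sia4, the enzymes that add polysialic acid, had -0.49 and -0.11. None of 8 sort antigen genes was called. Pou5f1, the core pluripotency factor, was at -4.89, -3.5 and -4.94 and then at -4.37, -2.89 and -4.85, far below mESC at both steps. Of 31 pluripotency genes 1 was lower, and it was not called with the block. Of 25 mesenchymal genes 2 were higher, Mfap5 by 1.91 and Thy1, also a neuronal gene, by 1.85 (adjusted p = 0.031; any of 6 arrays could end this call, with 1.8 and 0.106 without step 4 enriched replicate 2). The count was 5 with the replicate block, 5 with the 6 enriched arrays alone, 6 without step 5 unsorted replicate 2, and 1 without any of 5 enriched arrays. The list's medians were 2.34, 2.66 and 2.19 at step 4 and 3.25, 3.33 and 2.66 at step 5; their part in the collagen values was not tested. In the microglia and blood list 9 of 21 genes were bright enough to test and none was called, and its defining markers Ptprc, Aif1 and Cx3cr1 were not well above background. None of 13 endothelial and 19 endodermal and epithelial genes was called, and with the block 1 of the latter was lower. In the neural crest list 4 of 14 were higher, among them Sox10, which the oligodendrocyte precursor list also holds, and the pigment cell genes Mitf (1.98, adjusted p = 0.00561) and Dct, which was not well above background at step 4 (2.01, at least 5.16-fold on Cy5 alone), while the crest factor Tfap2a had -0.71.

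A few muscle genes fell. Myh3, an embryonic myosin heavy chain, was at 1.37, 0.97 and 0.21 and then at -2.72, -2.18 and -2.95 (difference -3.47, SE 0.43, adjusted p = 0.00267), or 11.1-fold lower. Myl4, an atrial and embryonic myosin light chain, was at 1.03, -0.2 and -0.38 and then at -1.7, -1.67 and -2.2 (difference -2, adjusted p = 0.011). Myl4 and the cardiac actin Actc1 were the 2 lower of 14 smooth and cardiac muscle genes, Actc1 at -1.22 (adjusted p = 0.0469) with a call that any of 10 arrays could end (-1.15 and 0.149 without step 4 enriched replicate 2), and the smooth muscle actin Acta2 had -0.26 and did not pass. With the replicate block 4 of the 14 were lower. Myh3 was in none of the lists and was among the 15 largest falls.

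Among the 15 largest rises outside the lists were secreted and membrane proteins. Cmtm5 and Entpd2, an ectonucleotidase of neural stem cells and glia, were both higher by 4.25, and Fbxo2, a brain ubiquitin ligase subunit, by 4.21. Mgp, an inhibitor of calcification, was at 4.75, 0.68 and 0.48 and then at 7.39, 7.49 and 6.23 (adjusted p = 0.0152; 4.43 and 0.0697 without step 4 enriched replicate 2). The step 4 replicate that stood apart was the high array here.

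Among the 15 largest falls was Ano1, a chloride channel, at 4.45, 4.22 and 4.51 and then at 1.9, 2.1 and 1.91 (difference -2.43, SE 0.37, adjusted p = 0.00603). Robo3, an axon guidance receptor of commissural neurons, was at 2.85, 3.74 and 3.53 and then at 1.57, 1.69 and 0.47 (difference -2.13, adjusted p = 0.014, and 0.067 without step 4 enriched replicate 2). In neuronal migration and axon guidance as a whole, 2 of 49 were higher and 2 lower (7 and 2 with the replicate block, and 0 higher without step 5 enriched replicate 3), Epha7 among the lower at -0.93 (adjusted p = 0.00896). Each share was 4.08%, against 4.16% of all genes higher and 2.6% lower. Of 30 ribosomal protein genes none was called, and their median was -0.13.

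The change in enriched cells was then set against the change in unsorted cells over the same step. In unsorted cells limma called no gene between the steps, but this rested on single arrays: 372 genes were called without step 5 unsorted replicate 2 and 35 without step 4 unsorted replicate 1, against none when any other array was left out. On slides 1 and 3 only it called 68 genes in unsorted cells, and 77 there with the replicate block. The difference itself, enriched change minus unsorted change, gave no called gene either (0% of 21643; 1516 at an unadjusted p under 0.05, none called with the replicate block, and 0 to 11 when any array was left out, the most without step 5 unsorted replicate 2). No gene was thus shown to change differently in enriched and unsorted cells. Median changes were larger in enriched than in unsorted cells for astrocyte genes (1.93 and 0.76), myelin genes (1.81 and 0.36) and oligodendrocyte precursor genes (1.24 and 0.15), and mitosis genes had -0.95 and -0.18, given here as a description.

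The 6 genes with the smallest adjusted p for that difference were Apoe, Ugt8a, Mt1, Ppp1r1b, Tead2 and Phyhd1. Apoe had a change of 4.84 in enriched and of 0.74 in unsorted cells, a difference of 4.1 ± 0.55 (SE, n = 3 per group; adjusted p = 0.0536). Ugt8a had 3.18 and 0.33, and Mt1 2.41 and 0.09, both with an adjusted p of 0.0536. Ppp1r1b, the DARPP-32 gene of striatal neurons, was the tightest of them: the enriched arrays were at -1.03, -0.99 and -1.04 and then at 1.05, 0.94 and 0.99, and the unsorted arrays at -0.46, -0.85 and -0.43 and then at -0.36, -0.98 and -0.52. Tead2, a factor of the Hippo pathway, was at 0.72, 0.79 and 0.7 and then at -0.84, -0.65 and -0.84 in enriched cells, and at 0.11, 0.11 and 0.29 and then at -0.16, -0.25 and 0.06 in unsorted cells. Phyhd1 had 2.85 and 0.74 (adjusted p of the difference 0.0617). In unsorted cells the Apoe values were -1.26, -0.81 and -1.52 and then -0.78, -0.43 and -0.16, so that the enriched arrays started lower and ended higher.

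**Figure D5:**
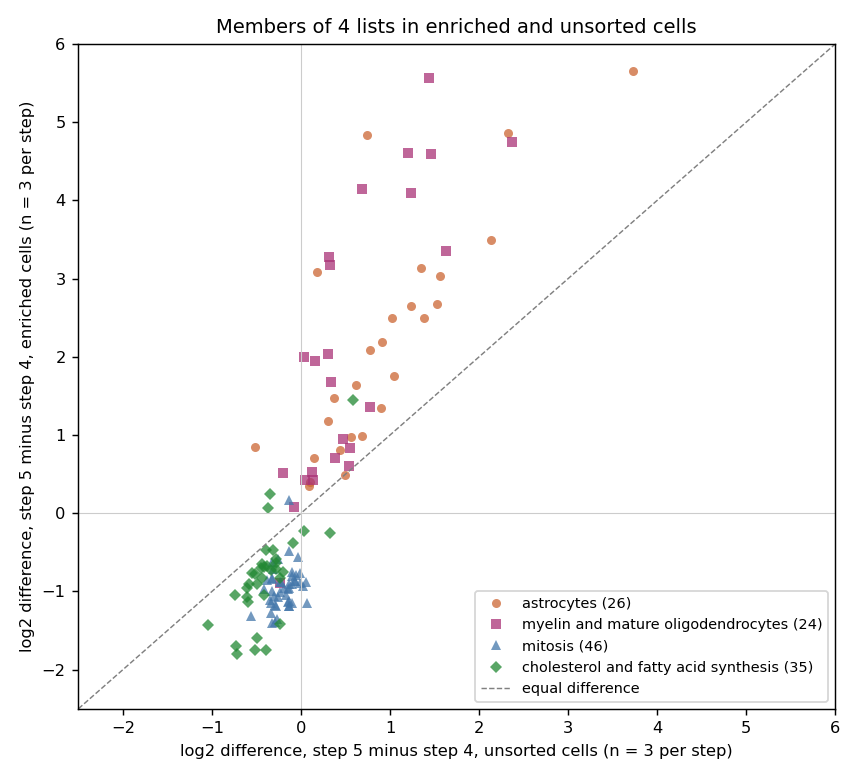
Change from step 4 to step 5 in log2 Cy5/Cy3, with unsorted cells on the horizontal axis and enriched cells on the vertical axis, for the tested members of the astrocyte, myelin, mitosis and sterol synthesis lists; each point is a gene and the dashed diagonal marks equal change. Apoe lies at 0.74 and 4.84 and Gfap at 3.73 and 5.66, and no gene passed the test of the difference.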

How the data were processed

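2-colour Agilent arrays of 4 groups with 3 replicates each were read from the scanner files. Per the file headers, mean spot signals and local background medians are intensities on a linear scale, extracted with Agilent Feature Extraction 10.7.3.1 (slides 1 and 3) or 10.5.1.1 (slide 2). The scanner's log10 ratio of Cy5 over Cy3, per the file headers, was already background-subtracted and dye-normalized, and the deposited value table holds it as log2 (within 0.001 for 99.4 to 99.5% of values). Per the submitters' processing notes probe positions are mm9; none is printed. Cy5 held the sample on every array and no dye swap was made, so a dye effect common to all arrays cancels in the difference.

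Background was corrected with normexp (offset 50) and ratios were normalized by loess within arrays in limma 3.58.1 (R 4.3.3, with version 1.17.8 of data.table). Control spots (1377 of 44397) and 128 to 298 outlier spots per array were left out. A probe was tested where every array of step 4 enriched or every array of step 5 enriched cells had Cy5 well above background, and the brightest probe stood for a gene (21643 genes, 16430 with a symbol; 88 lacked a value on some array and were fitted without it). Names came from the probes' accessions (26581 own, 100 other), symbols (2535) or synonyms (474) in a RefSeq table, and 9739 probes had no match and kept the file's name. Group means were fitted over all 12 arrays with lmFit and eBayes, two-sided, with Benjamini-Hochberg adjustment over all genes. The fit was tested on simulated data. The number of arrays limits the precision.

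The replicate number is also the slide. Enriched samples of the same number deviated together (correlations 0.341 to 0.41, against -0.361 to 0.0322 for other numbers), which was taken as pairing, and the fit with the number as a block is given beside a named result where it changes the call. No per-sample column was left unmapped. Figures were drawn with matplotlib 3.10.9 in Python 3.11.15.

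The comparison and the 49 gene lists were chosen with earlier results of these data known, so no list is independent evidence; 1071 of 1161 listed genes were tested and 68 are in more than 1 list. Named genes are the first 3 of a list, up to 4 further called members with the largest differences, the 15 largest called rises and falls with the same sign on all slides, and the 6 genes with the smallest adjusted p for enriched against unsorted cells; other genes named were chosen after their values were seen, and some genes of the rule are not reported here.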

Additional observations from a re-analysis of the deposited data

How the results depend on the processing

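Over 26 settings, none of the 139 called genes among 247 named ones changed direction, 38 kept their call in all, and the medians of 35 of 49 lists kept their sign. Counts of higher and lower genes were 587 and 363 with the 6 enriched arrays alone, 1497 and 1005 with the replicate block, 1003 and 597 with both, 210 and 115 on slides 1 and 3 only and 405 and 200 there with the block (these last settings were chosen after seeing the data). Leaving out 1 array gave 307 to 1128 higher and 147 to 682 lower genes, 4 to 13 higher astrocyte, 16 to 41 lower mitosis and 4 to 12 lower sterol genes. The lower sterol genes numbered 5 with the block on the 6 arrays, 2 on slides 1 and 3 and 3 there with the block. For the difference between enriched and unsorted cells, 8 genes passed without background subtraction, 2 in the deposited values, 1 with median centring, 10 with Cy5 alone, 8 with the mean of a gene's probes and 0 to 11 without 1 array. The cause of these changes was not tested, beyond fewer arrays in the smaller fits. The share of calls that were higher was 61.5%, and 51.9 to 70.4% under other scalings. Aquantile leaves ratios unchanged by construction. Of the named calls, 58 ended without step 4 enriched replicate 2 and 54 without step 5 enriched replicate 3. For 230 genes dim at step 4 and 19 dim at step 5 only a bound on the fold holds.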

Other observations

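Transporters of amino acids and creatine gave a small group of rises that the account above leaves out. Of 19 tested transporters 4 were higher and none lower, with a median of 0.14. Slc38a3, the glutamine exporter of astrocytes, was higher by 2.41 (adjusted p = 0.00697), Slc1a1, a glutamate transporter of neurons, by 2.32 (adjusted p = 0.00342, but 1.47 and 0.0572 in the deposited value table), and Slc6a8, the creatine transporter, by 1.15 (adjusted p = 0.0108), and these 3 kept their call without any 1 of the 12 arrays; the other was Slc1a2. Slc6a8 was at 0.75, 0.77 and 0.78 at step 4 and at 1.76, 1.99 and 1.99 at step 5, with no overlap. Slc6a11, which takes up GABA, had 0.63 and did not pass. Of 23 neuropeptide and granin genes 1 was higher, or 4.35%, near the 4.16% of all genes, and 3 were higher with the replicate block. The called gene was Cck at 1.6 (adjusted p = 0.0345, and 1.54 with 0.0948 without step 5 enriched replicate 2), while Npy, Tac1 and Sst had 0.98, 1.23 and 0.9 and did not pass. Of 21 interferon and MHC class I genes 2 were higher, Ifit3 by 1.31 and Ifit2 by 0.62, and without step 5 enriched replicate 3 these were 1.21 (adjusted p = 0.0628) and 0.51 (adjusted p = 0.135); neither was called in the deposited value table, where Ifit3 had 0.17. In the choroid plexus list Ttr, its main secreted product, had 0.22 and did not pass.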
